A study of Mus musculus with 7 samples.

Results

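Late 2 and early 1, 1 late passage and 1 early passage sample of mouse thyroid follicular cell organoids (TFCOs), were set against the other 3 organoid samples, late 1, late 3 and early 2. The pair was chosen by expression values of these same cells, because the mean profiles of late 2 and early 1 were alike across genes although their passage differed. Only cells with at least 1000 unique molecular identifiers (UMIs, tags that mark single captured molecules) were used. The pair held 595 of the 1457 organoid cells that met this minimum (360 in late 2 and 235 in early 1), and the other 3 samples held 307, 242 and 313 cells, out of 2035 such cells in the 7 samples of the series.

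Single cells had been sorted as live, DAPI-negative cells into 384-well plates and sequenced by SORT-seq, which captures the 3′ ends of transcripts. The series holds 2 samples of primary thyroid tissue, 3 of late passage TFCOs and 2 of early passage TFCOs. All were of wild-type C57BL/6 origin, and the study derived its organoids from female mice whose age is not given in the sources used here. Late 2 is a late passage sample and early 1 an early passage sample, late 1 and late 3 are late passage and early 2 is early passage. No treatment was applied. All organoids shared 1 expansion medium with R-spondin 3, EGF, FGF10, forskolin (which raises cAMP), A83-01 (an inhibitor of TGF-β receptors), N-acetylcysteine and nicotinamide, in basement membrane extract. Sample numbers only name samples, and the labels do not say which samples came from the same mouse or the same organoid line.

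Thyroid follicular cells (TFCs) line follicles, take up iodide and build thyroid hormone on thyroglobulin, under the control of the TSH receptor and of transcription factors such as NKX2-1 and PAX8. NKX2-1 is shared with the lung epithelium, where it drives surfactant genes. Glutathione S-transferases, complement regulators and secreted matrix proteins are further products of many epithelia.

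Levels are given as the mean over the cells of a sample of UMIs per 10000 UMIs, and differences as the mean log2(level + 1) of the pair minus that of the other 3 samples. The added 1 understates the difference of genes at low levels. A gene is called separated when both samples of the pair lay above, or both below, all 3 others. Since expression chose the pair, all differences in expression are descriptions and carry no test.

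The genes that set the pair apart most were Dcpp3 and Sftpb, which were higher, and Gstm2, Cd59a and Spon1, which were lower. Dcpp3 encodes a protein of the demilune and parotid secretory family, made by salivary-type glands. Its gene (ENSMUSG00000057417) lies at chr17:23917458-23919441 on the plus strand of GRCm38. The level of Dcpp3 was 39.2 in late 2 and 25.5 in early 1, against 4.09 in late 1, 4.62 in late 3 and 2.83 in early 2. Both samples of the pair thus lay far above the other samples, with no overlap, and the ratio of the mean levels was 8.40 (log2 difference 2.77, SE 0.31). Its neighbour Dcpp2 stood at 4.55 in late 2 and 2.61 in early 1, against 0.309, 0.561 and 0.291 in late 1, late 3 and early 2 (log2 difference 1.70). Of the 50-base stretches in Dcpp3 transcripts, 22.1% also occur in other genes, Dcpp1 and Dcpp2 among them, so the split of reads within this family is uncertain. Genes on the other strand are annotated over part of Dcpp3 and of Dcpp2, and the sources used here do not say if reads were counted by strand.

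The promoters of Dcpp3, Dcpp2 and Sftpb are shown because these genes were high together in the pair. The sequences are those of RefSeq (build GRCm38.p6), each 300 bases long, from 250 bases before to 50 bases after the gene start, 5′ to 3′, and all 3 are on the plus strand. They are chr17:23917208-23917507 for Dcpp3, chr17:23898472-23898771 for Dcpp2 and chr6:72304360-72304659 for Sftpb. Capitals mark TATAA in each and CTCAAG, letters found in NKX2-1 sites of the thyroglobulin promoter, in Sftpb.
Dcpp3: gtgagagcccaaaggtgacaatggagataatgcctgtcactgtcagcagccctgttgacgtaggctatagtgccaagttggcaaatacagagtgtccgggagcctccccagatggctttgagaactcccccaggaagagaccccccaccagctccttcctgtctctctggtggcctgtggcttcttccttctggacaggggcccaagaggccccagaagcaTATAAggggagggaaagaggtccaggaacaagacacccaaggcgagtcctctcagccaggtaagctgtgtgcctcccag
Dcpp2: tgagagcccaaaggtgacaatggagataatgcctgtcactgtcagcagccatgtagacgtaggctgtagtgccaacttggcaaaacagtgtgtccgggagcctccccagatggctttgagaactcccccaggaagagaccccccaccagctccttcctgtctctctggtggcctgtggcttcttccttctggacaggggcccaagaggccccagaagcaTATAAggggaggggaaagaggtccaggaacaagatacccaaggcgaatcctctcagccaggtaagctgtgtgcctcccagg
Sftpb: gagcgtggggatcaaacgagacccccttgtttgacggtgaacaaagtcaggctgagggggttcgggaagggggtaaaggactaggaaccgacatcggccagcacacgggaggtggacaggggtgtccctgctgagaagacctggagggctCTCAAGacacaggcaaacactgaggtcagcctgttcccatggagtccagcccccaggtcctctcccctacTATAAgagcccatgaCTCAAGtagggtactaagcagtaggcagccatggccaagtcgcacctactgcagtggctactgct
The Dcpp3 and Dcpp2 promoters were nearly the same sequence, with 291 identical bases, 7 mismatches and 4 gap bases in a global alignment (97.7% identity of aligned bases). In Sftpb, CTCAAG began 100 and 15 bases before the gene start, and TATAA began 30 bases before it. TATAA began 29 bases before the start in Dcpp3 and 31 bases before it in Dcpp2. Both motifs were searched on both strands, and CTCAAG occurred in 15.9% and TATAA in 24.9% of 32851 promoters of the same length. Before them CAAGTG (13.6% of promoters), TATAAA (13.6%) and TGACNNNGC, the core of the antioxidant response element (12.4%), had been searched and had no match in these 3 promoters, and the motifs marked were added with the sequences in view. TATAA lies within TATAAA, and CTCAAG can overlap CAAGTG.

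Sftpb encodes surfactant protein B, which alveolar cells of the lung secrete. The gene (ENSMUSG00000056370) lies at chr6:72304610-72314371 on the plus strand. Its level was 14.6 in late 2 and 12.7 in early 1, and 3.76, 2.499 and 1.92 in late 1, late 3 and early 2. The lowest sample of the pair was above the highest of the others (log2 difference 2.00, SE 0.28, ratio of means 5.02). Sftpb transcripts were thus present in all 5 organoid samples, at different levels.

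Gstm2, a glutathione S-transferase of the mu class that conjugates glutathione to reactive compounds, lies at chr3:107981702-107986453 on the minus strand (ENSMUSG00000040562). It was close to 0 in the pair, at 0.0765 in late 2 and 0.0330 in early 1, which rest on 19 and 13 UMIs. In late 1, late 3 and early 2 it stood at 2.45, 1.66 and 1.18. The ratio of the means was 32.2 in favour of the other samples, and the log2 difference was -1.36 (SE 0.25). With 0.1 added in place of 1 the log2 difference of Gstm2 was -3.55.

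Cd59a encodes an inhibitor of the complement membrane attack complex (ENSMUSG00000032679, chr2:104095801-104115354, plus strand). It stood at 0.396 in late 2 and 0.496 in early 1, and at 2.28, 3.59 and 2.73 in late 1, late 3 and early 2. Spon1, the secreted matrix protein spondin 1 (ENSMUSG00000038156, chr7:113765998-114043370, plus strand), stood at 0.457 in late 2 and 0.705 in early 1, and at 3.31, 2.76 and 2.43 in late 1, late 3 and early 2. Neither gene overlapped between the pair and the others (log2 differences -1.41, SE 0.19, and -1.28, SE 0.15).

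**Figure D1:**
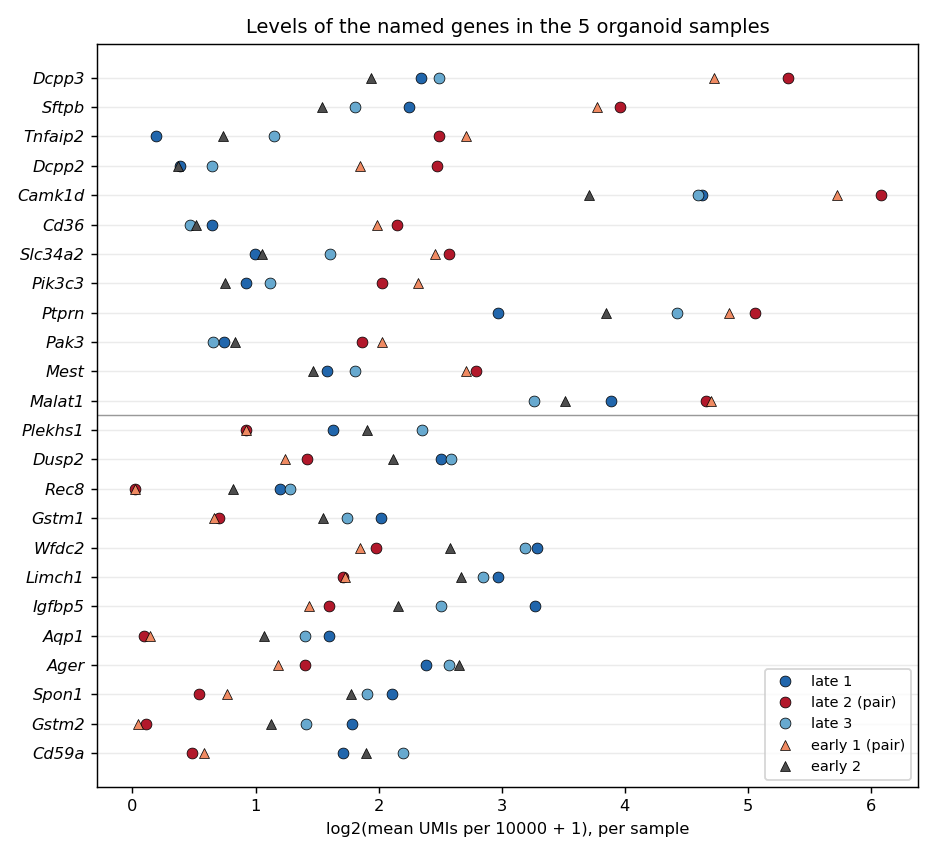
Mean level of the 12 named genes highest and the 12 lowest in the pair, on a scale of log2(UMIs per 10000 + 1), with 1 point per sample. Circles are late and triangles early passage samples, and late 2 and early 1, in red and orange, lie to the right of the other 3 samples in the upper rows and to the left of them in the lower rows.

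Across the 4642 measured genes (a mean of at least 0.5 per 10000), 560 were separated upwards in the pair, which is 12.1% of them, and 430 downwards, which is 9.26%. The groups were formed on these values, so nothing is read from these shares. At least a 2-fold difference was also met by 23 genes upwards (0.495%) and 14 downwards (0.302%), while the median log2 difference of all measured genes was -0.000658. With UMIs of features fed by ribosomal RNA left out of the cell totals, an alternative chosen after seeing the data, 734 genes were separated upwards and 359 downwards. Without early 2, 1170 genes were separated upwards and 1299 downwards. The last gene inside the 2-fold limit was Gm47904 at 1.01 and the first outside it Tgfbi at 0.998. On the lower side these were Bmp5 at -1.02 and Cst3 at -0.997. Separation also held in cells thinned to 1000 UMIs and in cells without a UMI of Mki67, Top2a or Ccnb2 for all 23 of the higher genes and for 13 of the 14 lower ones.

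**Figure D2:**
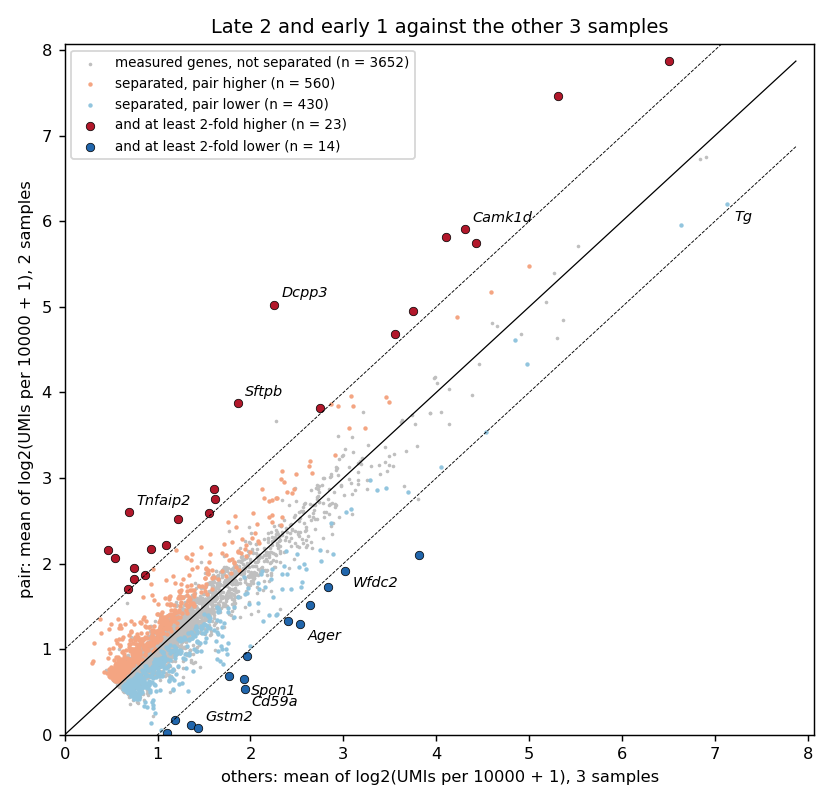
Mean log2(UMIs per 10000 + 1) of 4642 measured genes in the 2 samples of the pair (vertical axis) against the other 3 samples (horizontal axis). The solid line marks equal levels and the dashed lines a 2-fold difference, and the 23 red and 14 blue points, each among the 560 or 430 separated genes, lie beyond them.

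Other genes named by size on the higher side had roles in lipid uptake, transport, signalling and secretion. Tnfaip2, a gene first known for its induction by tumour necrosis factor, stood at 4.63 in late 2 and 5.55 in early 1, against 0.144, 1.22 and 0.665 in late 1, late 3 and early 2. Cd36, a scavenger receptor that takes up fatty acids, stood at 3.43 and 2.96 in the pair and at 0.382 to 0.569 in the others. Slc34a2, the sodium phosphate cotransporter of alveolar and other epithelia, stood at 4.95 and 4.50, against 0.999 to 2.05. No value of the other samples reached the pair in any of these 3 genes, and their log2 differences were 1.91, 1.52 and 1.30.

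Camk1d, a calcium/calmodulin-dependent kinase, was abundant in every sample, at 66.9 in late 2 and 52.0 in early 1 and at 23.8, 23.2 and 12.1 in late 1, late 3 and early 2 (log2 difference 1.59). CT010467.1, a feature annotated as ribosomal RNA, had the same order of samples (273, 113, 62.1, 39.2 and 23.5). Whether Camk1d levels follow ribosomal RNA content was not tested. Ptprn, a receptor-type phosphatase family member of dense core granules, stood at 32.3 and 27.9 in the pair and at 6.83, 20.5 and 13.4 in the others (1.21). Late 3 came close to the pair here, and the SE of 0.55 was the largest of the 24 genes in the plot of levels by sample. Mest, an imprinted gene expressed from the paternal allele, stood at 5.92 and 5.55, against 1.77 to 2.51 (1.13). Pak3, a p21-activated kinase, Pik3c3, the class III phosphatidylinositol 3-kinase, and Malat1, an abundant nuclear noncoding RNA, completed the group with log2 differences of 1.20, 1.25 and 1.12. Camk1d follows the well barcode weakly (correlation of 0.0892 between cells of different plates with the same barcode), and genes on the other strand overlap Camk1d, Ptprn, Slc34a2, Tnfaip2, Mest and Malat1.

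On the lower side, several genes were nearly absent from the pair rather than reduced in part. Rec8, a cohesin subunit of meiosis, had 5 UMIs in all cells of late 2 and 5 in those of early 1, against 257, 356 and 253 UMIs in late 1, late 3 and early 2. Its levels were 0.0134 and 0.0122 in the pair and 0.767 to 1.43 in the others (log2 difference -1.08). Aqp1, a water channel, stood at 0.0665 in late 2 and 0.105 in early 1, against 2.03, 1.64 and 1.09 (log2 difference -1.24). Together with Gstm2 these genes had levels of about 0.1 or less per 10000 in both samples of the pair, and of 0.767 or more in each of the others.

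Other lower genes kept a clear level in the pair. Ager, the receptor for advanced glycation end products and a marker of flat alveolar cells in the lung, stood at 1.65 in late 2 and 1.27 in early 1 and at 4.22, 4.95 and 5.29 in late 1, late 3 and early 2 (log2 difference -1.24). Wfdc2, a secreted protein of airway and glandular epithelia, stood at 2.95 and 2.59, against 8.75, 8.12 and 4.99 (-1.11). Igfbp5, which binds insulin-like growth factors, stood at 2.03 and 1.71, against 8.65, 4.69 and 3.47 (-1.13). The 3 genes did not overlap between the groups, and for Wfdc2 and Igfbp5 early 2 was the sample nearest to the pair. Limch1, Dusp2, a phosphatase that inactivates MAP kinases, and Plekhs1 had log2 differences of -1.11, -1.08 and -1.04.

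Of the 37 genes past the 2-fold limit, 6 higher and 5 lower ones follow the well barcode by a correlation above 0.05, and their part in the difference was not tested. Of 4642 measured genes, 1451 (31.3%) do so. Among the named genes these included Camk1d, Cd59a (0.0782), Spon1 (0.0564), Igfbp5 (0.0571) and Gstm1 (0.0574). Without genes above that limit, 17 genes were separated and at least 2-fold higher and 9 lower.

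Within gene families the members went in different directions. The counts of list members stand beside 12.1% of all measured genes separated upwards and 9.26% downwards, and nothing is read from them. Of 8 measured glutathione S-transferases, 2 were higher in the pair and 3 lower. Gstm1, next to Gstm2 in the mu class, stood at 0.626 in late 2 and 0.585 in early 1, against 3.05, 2.35 and 1.92 (log2 difference -1.09), and Gsta3 was lower by a small margin (-0.32). Gsta4, which acts on products of lipid peroxidation, stood at 1.605 and 1.11 in the pair, against 0.359, 0.556 and 0.277 (0.75), and Gstt2 at 3.65 and 2.62, against 1.49 to 1.64 (0.68). The median of the 8 members was -0.13. None of 14 measured targets of NRF2, the regulator of the antioxidant response, or genes of glutathione supply was separated, and their median was 0.0116. Of 11 genes of peroxide and superoxide defence, 2 were higher, 1 was lower and the median was -0.06.

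Among 7 measured genes of the lung-type NKX2-1 target list, Sftpb, Slc34a2 and Abca3, a lipid transporter of surfactant, were higher and Ager was lower. Abca3 moved little (2.79 and 3.01 in the pair, 2.47 to 2.76 in the others, log2 difference 0.12), and the median of the list was 0.06. Sftpc, the surfactant gene most particular to alveolar cells, was not measured by the filter and stood at 0.00201 in late 2, 0.00266 in early 1, 0.285 in late 1 and 0 in late 3 and early 2. NKX2-1 itself was not separated, since its transcript stood at 2.86 in late 2 and 2.48 in early 1 and at 5.57, 3.15 and 2.71 in late 1, late 3 and early 2. Of 5 measured thyroid transcription factors, Glis3 was the 1 that was separated, at 2.57 and 2.45 in the pair and 1.00 to 1.43 in the others (log2 difference 0.72).

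Genes of hormone synthesis were mixed as well. Tg, which encodes thyroglobulin, stood at 76.6 in late 2 and 68.5 in early 1, below 133, 154 and 132 in late 1, late 3 and early 2 (log2 difference -0.93). Iyd, which recovers iodide from iodotyrosines, stood at 1.11 and 0.917, against 3.25, 2.47 and 1.48 (-0.73). The TSH receptor gene Tshr went the other way, at 6.66 and 7.18 in the pair against 4.71, 4.22 and 3.22 (0.66). In all, 2 of 8 measured members were higher and 2 lower, with a median of 0.02. Not every member is named here.

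Of the 16 genes in the list of airway and salivary secretory genes, which leaves out the Dcpp genes, 3 were measured. These were Wfdc2, Lcn2 and Aqp5, and all were separated downwards (9.26% of all measured genes were). Lcn2, the iron-scavenging lipocalin 2, stood at 0.0577 in late 2 and 0.0270 in early 1, against 1.52, 0.908 and 0.814 in late 1, late 3 and early 2 (log2 difference -0.98). Aqp5, a water channel of secretory epithelia, stood at 0.312 and 0.230, against 0.688 to 1.41 (-0.60). Clu, which encodes clusterin, was lower with Cd59a in the complement list, at 0.996 and 0.842 against 1.78 to 3.75 (-0.80).

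Genes of pathways that the shared medium targets were separated in both directions, beside 12.1% upwards and 9.26% downwards of all measured genes. Of 6 measured TGF-β and BMP response genes, Id1, Id3 and Ltbp1 were lower (log2 differences -0.42, -0.26 and -0.31). Tgfbi, a matrix protein induced by TGF-β, was higher, at 15.1 in late 2 and 12.2 in early 1 against 3.95 to 8.58. Of 9 genes of EGF and FGF pathway feedback, Phlda1, the ETS factor Etv5 and the ERK phosphatase Dusp6 were lower (-0.88, -0.41 and -0.36) and Fgfr1, an FGF receptor, was higher (0.35). In the list of cAMP response genes, 2 of 5, the phosphodiesterase genes Pde4d and Pde10a, were higher and none lower, and neither remained separated at equal depth. Of the genes named above, Dusp6 was not separated at equal depth, nor Id3 and Fgfr1 in cells without cycling markers. No member was separated among 5 Wnt targets, 8 keratin and junction genes, 10 genes of glycolysis and hypoxia, 4 immediate early genes or 4 MHC class I genes. Ccn2, a YAP and TEAD target, was lower (6.47 and 5.86 in the pair, 10.5 to 14.2 in the others).

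In sterol synthesis 5 of 11 measured genes were separated upwards (12.1% of all measured genes were) and 0 downwards, with a median log2 difference of 0.22. Idi1, an isomerase of the isoprenoid branch, stood at 1.33 in late 2 and 1.70 in early 1, against 0.426, 0.807 and 0.718 in late 1, late 3 and early 2 (0.61). Cyp51, Nsdhl and Fdft1 were also separated, and 2 of the 5 remained separated both at equal depth and without cycling markers. In the unfolded protein response, the chaperone genes Hsp90b1, Hspa5, Canx and Manf were higher and the factors Atf4 and Xbp1 lower, of 14 measured genes, with a median of 0.13. Of these, 2 higher genes (Hsp90b1 and Canx) and 1 lower gene (Atf4) remained separated both at equal depth and without cycling markers. Of 14 lysosomal genes Psap and Lgmn were lower (9.26% of all measured genes were) and none higher. For matrix genes, Fn1 (fibronectin) and Lamc1 were higher and Spon1, Col18a1 and Lamb2 lower, of 12, with Col18a1 not separated in cells without cycling markers.

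**Figure D3:**
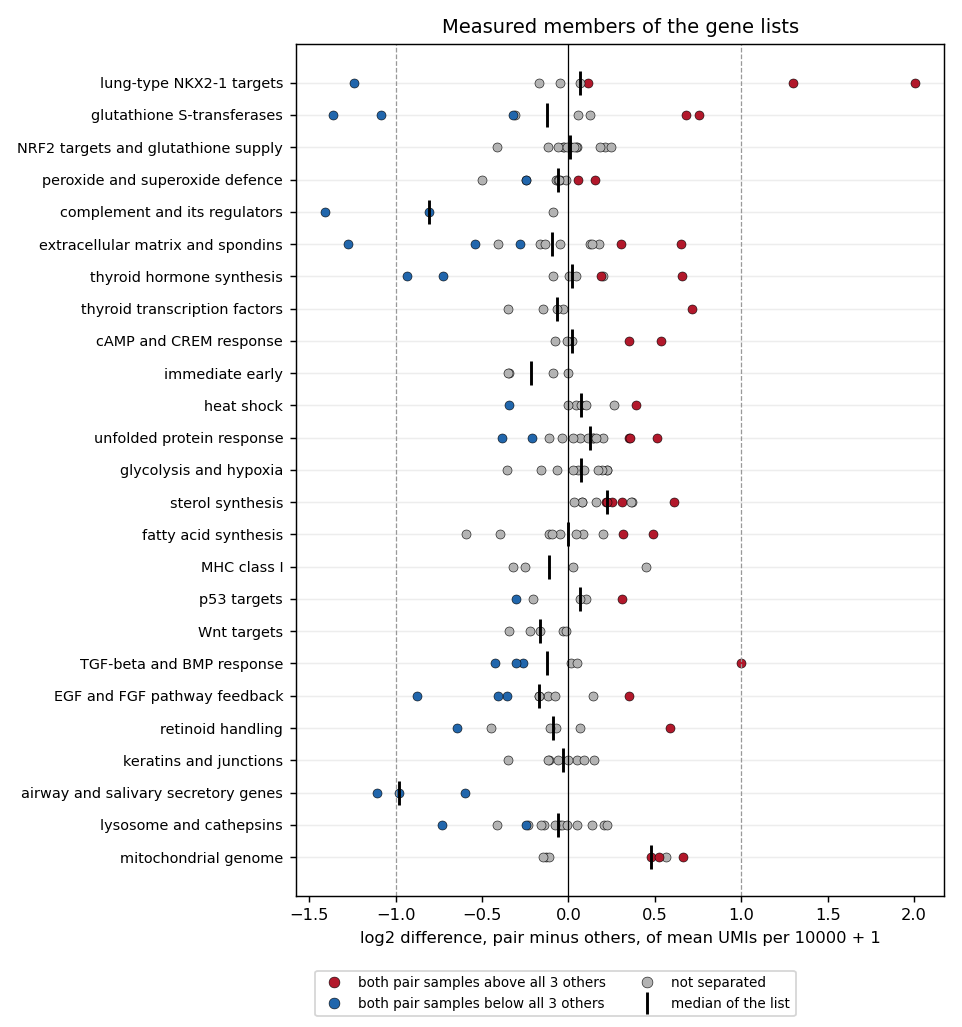
Log2 difference (pair minus others) of each measured member of the gene lists with at least 3 measured members other than ribosomal protein genes, with the median of each list as a black bar and the 2-fold limits as dashed lines. Red members lay above and blue members below all 3 other samples in both samples of the pair. Of 11 sterol synthesis genes 5 are red and 0 blue, beside 12.1% and 9.26% of all measured genes.

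Cell by cell, the difference was spread over the pair rather than held by a few cells. After each cell was thinned to 1000 UMIs, at least 1 UMI of Dcpp3 was found in 56.7% of cells of late 2 (95% interval 51.4 to 61.9, exact binomial) and 55.3% of early 1 (48.7 to 61.8). The share was 8.79% (5.88 to 12.5) in late 1, 10.7% (7.14 to 15.3) in late 3 and 8.31% (5.50 to 11.9) in early 2. Cells with a UMI held a mean of 7.13 and 4.78 UMIs of Dcpp3 in late 2 and early 1 and of 4.30, 4.50 and 3.31 in late 1, late 3 and early 2. The share of cells thus differed more than the level in the cells that had the transcript. The highest cells held 62 UMIs in late 2, 54 in early 1 and 22 to 27 in the other samples. In 347 tissue cells with endothelial transcripts, thinned in the same way from a median depth of 4121 UMIs, no cell had a UMI of Dcpp3, which allows a share of cells with a UMI at that depth of up to 0.865%. The limit does not cover cells that express it at a lower level, and before thinning the mean level of Dcpp3 in these cells was 0.00536 per 10000. Intervals and limits cover counting error only.

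Sftpb was found in 58.6% and 57.4% of cells in the pair and in 24.1%, 16.1% and 15.97% of cells in late 1, late 3 and early 2. Gstm2 was found in 1.11% (0.304 to 2.82) and 1.28% (0.264 to 3.69) of the pair's cells, which was near the 0.576% of the tissue cells with endothelial transcripts, and in 16.6%, 11.6% and 11.5% of cells in the others. Cd59a was found in 4.17% and 4.68%, against 18.2 to 22.7%, and Spon1 in 3.61% and 5.11%, against 17.3 to 26.9%. Both pairs of shares lay at or below those of the tissue cells with endothelial transcripts (8.36% for Cd59a and 5.76% for Spon1). The 16 higher genes with gene symbols were then summed per cell. The summed genes were chosen by their levels in these same samples, so a gap between the groups follows from the choice. The median was 20 UMIs in late 2 and 17 in early 1, with a 10th percentile of 11.9 and 9, against medians of 6, 6 and 4 in late 1, late 3 and early 2, with a 90th percentile of 13, 15 and 12. For the sum of the 14 lower genes the median was 1 UMI in both samples of the pair, with a 90th percentile of 3, and 5, 5 and 6 in the others, with a 10th percentile of 2 in each. In the tissue cells with endothelial transcripts the sum of the higher genes had a median of 6 UMIs and a 90th percentile of 17. Their sum of the lower genes had a median of 1 and a 90th percentile of 3.

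**Figure D4:**
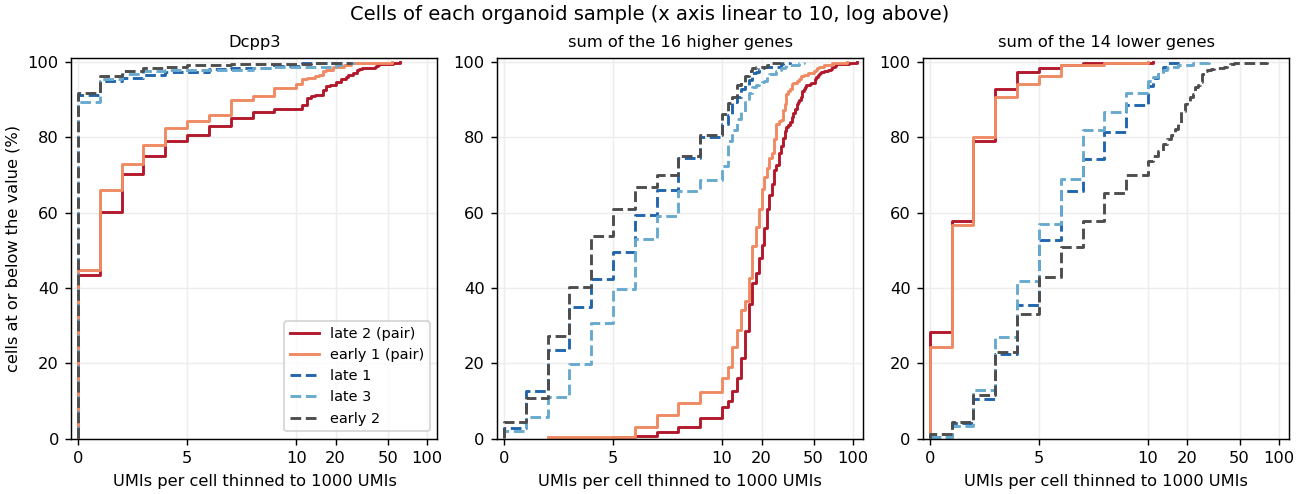
Cumulative share of cells (vertical axis, percent) by the number of UMIs per cell after thinning to 1000 UMIs (horizontal axis, linear up to 10 and logarithmic above), for Dcpp3, the sum of the 16 higher genes and the sum of the 14 lower genes. Solid lines are late 2 and early 1, with medians of 20 and 17 UMIs in the middle panel, and dashed lines are late 1, late 3 and early 2, with medians of 6, 6 and 4. The genes of both sums were chosen by their levels in these same samples.

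Within samples, Dcpp3 and Dcpp2 went together over cells, with a Pearson correlation of 0.766 in late 2 (n = 360 cells), 0.545 in early 1 (n = 235), 0.717 in late 1, 0.883 in late 3 and 0.439 in early 2. These cells share a library, and reads may be split between both genes. Dcpp3 and Sftpb were only loosely related, with 0.300 in late 2, 0.167 in early 1 and -0.0356 to 0.134 in the other samples. The sums of the higher and of the lower genes were nearly unrelated within the pair (-0.0771 in late 2 and 0.0598 in early 1). Tg was not opposed to the sum of the higher genes, with 0.1001 and 0.230 in the pair.

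Tissue cells rich in Tg offered a view of the same genes in the gland. The 95 cells with at least 300 UMIs of Tg per 10000 (53 and 42 in the 2 tissue samples) had no UMI of Dcpp3 or Dcpp2. Their median was 2215 UMIs per cell, against 5011 or more in the organoid samples, so low levels of both genes could go unseen in these few cells. Sftpb stood at 0.0795 and 0.534 there and Slc34a2 at 0.0681 and 0.0157, below every organoid sample. Camk1d stood at 117 and 131, above the pair. Among the lower genes, Ager stood at 34.9 and 24.0, above all organoid samples, and Cd59a at 2.61 and 2.51 and Wfdc2 at 3.73 and 3.77, while Gstm2 (0.136 and 0.275) and Spon1 (0.903 and 0.756) were lower there than in late 1, late 3 and early 2.

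The likeness of late 2 and early 1 that chose the pair was measured again across the 4642 genes, with levels centred on the mean of the 5 samples. Such centring by itself pushes the correlations below 0, so 0 does not mark unrelated samples. Late 2 and early 1 had the highest Pearson correlation of the 10 sample pairs, 0.457 (Spearman 0.277). Late 1 and late 3 followed with 0.319, and the remaining pairs ran from -0.619 to -0.0108. By Spearman correlation the order was the reverse, with 0.329 for late 1 and late 3. Genes share their libraries and are not replicates, so no p is given. After thinning the correlation of late 2 with early 1 was 0.256, in cells without cycling markers it was 0.300, and with both choices together it was 0.0427. For both choices together the other sample pairs are not reported here, so no rank is given. In cells without cycling markers late 1 with late 3, at 0.318, was thus the pair with the highest correlation, and by Spearman it was highest there (0.337 against 0.101) and after thinning (0.154 against 0.0933).

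**Figure D5:**
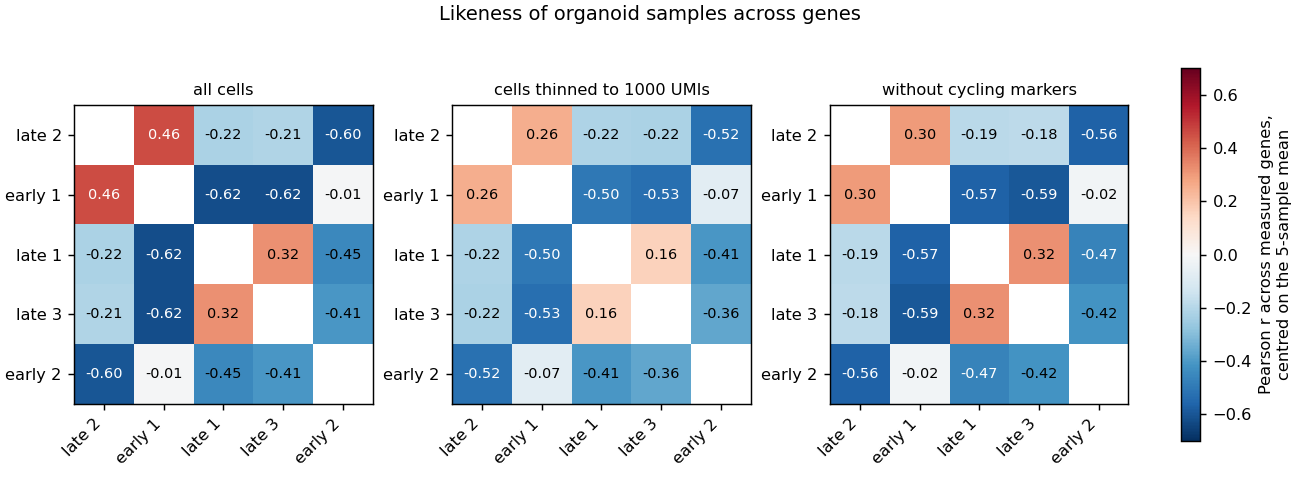
Pearson correlation across genes between organoid samples, centred on the mean of the 5 samples, for all cells of at least 1000 UMIs (left), cells thinned to 1000 UMIs (middle) and cells without a UMI of Mki67, Top2a or Ccnb2 (right). Late 2 with early 1 is at 0.457, 0.256 and 0.300 in the 3 panels, and late 1 with late 3 at 0.319, 0.164 and 0.318.

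Depth, cycling cells and ribosomal RNA moved with the pair. The median number of UMIs per cell was 12380.5 in late 2 and 11059 in early 1, against 5704, 8954 and 5011 in late 1, late 3 and early 2 (ratio of means 1.79, exact permutation p = 0.2, two-sided, smallest possible 0.1, adjusted p = 0.4 over 2 comparisons). The share of deposited cells that met the minimum was 94.2% and 62.2% in the pair and 84.8%, 67.6% and 86.2% in the others (exact permutation p = 1, two-sided). Cells with a UMI of Mki67, Top2a or Ccnb2 made up 45.3% (40.1 to 50.6) of late 2 and 53.2% (46.6 to 59.7) of early 1, and 19.2%, 29.3% and 25.9% of late 1, late 3 and early 2. At 1000 UMIs per cell these shares were 10.6%, 13.6%, 6.51%, 9.09% and 7.03% in the same order, so the pair's values stayed higher by a smaller margin. The intervals of late 2 (7.58 to 14.2) and early 1 (9.50 to 18.7) then overlapped those of all other samples, such as late 3 (5.79 to 13.4). In cells without these markers the log2 difference of Dcpp3 was 3.19 and that of Gstm2 -1.28.

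Features that collect ribosomal RNA reads held 6.50% of UMIs in late 2 and 3.05% in early 1, against 2.37%, 1.22% and 1.27% in late 1, late 3 and early 2. They were named after their values were seen. CT010467.1, annotated as ribosomal RNA, stood at 273 and 113 per 10000 in the pair, against 62.1, 39.2 and 23.5 (log2 difference 2.16), and the mitochondrial ribosomal RNA gene mt-Rnr2 at 308 and 177, against 128, 74.5 and 75.9 (1.37). Late 2 was highest in both. Of 7 measured protein genes of the mitochondrial genome, 3 were separated upwards and none downwards (mt-Nd1, mt-Nd5 and mt-Atp8, with log2 differences of 0.48, 0.66 and 0.53). Among all measured genes 12.1% were separated upwards and 9.26% downwards, and nothing is read from the count. Of 76 measured ribosomal protein genes 1, Rpl4, was separated, downwards, with a median of -0.18. The part of depth, cycling cells and ribosomal RNA in the differences was not tested.

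Other cell types were nearly absent from all organoid samples. Endothelial markers summed to 1.37 in late 2 and 2.03 in early 1, against 1.35 to 2.44 per 10000 in the others, with Cldn5 at 0 in every sample, and immune markers to 0.0415 and 0.0916, against 0.0349 to 0.0943, with C1qa and C1qb at 0. No marker in the mural, stromal, immune, C cell, erythroid and ciliated airway lists reached the filter on low values, so separation could not be asked of them. The 2 measured endothelial genes and the 1 measured parathyroid gene were not separated. The noncoding RNA Xist stood at 1.96 and 1.99 in the pair and at 1.64 to 2.00 in the others. The Y-linked genes Ddx3y, Kdm5d and Uty were highest in early 2, at 0.375, 0.160 and 0.193, against at most 0.228, 0.0678 and 0.101 in the other samples, and Eif2s3y was at no more than 0.0224 in any sample. All 4 were under the filter on low values, and Ddx3y follows the well barcode (0.340).

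The plates share their well barcodes, and 338 to 376 barcodes were found in both samples of each pair of organoid samples, 376 of them in late 2 and early 1. Cells of late 2 and early 1 with the same barcode had a mean profile correlation of 0.134, the highest of the 10 sample pairs (0.0551 to 0.111 in the others), against -0.000237 for cells with different barcodes. The depth of cells with the same barcode was unrelated (r = -0.0200 over log depth). The part of shared barcodes in the likeness was not tested.

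Late 2 and early 1 were chosen because they were alike across genes, so a small count of genes that differ between them follows from the choice. Such genes were not counted for the other sample pairs, and nothing is read from the count. Between themselves, late 2 and early 1 differed by at least 2-fold in 3 of 4642 genes (0.0646%), all higher in late 2, and by as much in the other direction in none (0%). These genes were Cmss1 (21.03 in late 2 and 6.31 in early 1), CT010467.1 (273 and 113) and the pseudogene Rpsa-ps10 (5.72 and 0.528), of which the last 2 lie outside the naming rule and were chosen after their values were seen. Cmss1 stood at 4.53 in late 1, 6.48 in late 3 and 1.74 in early 2, so early 1 lay among the other samples. Cdk8, a kinase of the Mediator complex, stood at 18.4 and 9.58 in late 2 and early 1 (log2 difference 0.87) and Znhit1, a subunit of a chromatin remodelling complex, at 13.8 and 26.3 (-0.88). Cdk8 and Znhit1 follow the well barcode (0.142 and 0.058), and genes on the other strand overlap Cmss1 and Znhit1. Znhit1 was also higher in early 2 (31.3) than in late 1 (13.7) and late 3 (21.7), so that both early samples lay above all late ones. Dcpp3 was higher in late 2 than in early 1 by 0.60 on the log2 scale, against 2.77 between the pair and the others, and Sftpb by 0.19.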

How the data were processed

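Per the labels, cells were sorted into 384-well plates holding spike-ins and libraries were made by SORT-seq, based on CEL-seq2. The submitters' processing notes name Trim Galore 0.4.3, STAR 2.5.3a, Seurat and the builds GRCm38 and mm10, and the filter on cells is not given in the sources used here. The deposited values, for 30879 genes in 2590 cells, are natural logs that the authors took of UMIs scaled to 10000 in each cell, with 1 added. Reversing this gave a sum of 10000 in each cell, and division by the smallest non-zero value of a cell gave whole numbers for 100% of values (tolerance 0.01), taken as UMIs on the assumption that this smallest value is 1 UMI.

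Cells under 1000 UMIs were left out, and no doublet caller was run. Total depth per organoid sample ran from 1985836 to 4703472 UMIs. Python 3.11.15 with numpy 2.4.6, scipy 1.17.1 and pandas 2.3.3 was used. Levels, the pseudocount of 1 and the filter of 0.5 per 10000 are as given with the results, and thinning drew UMIs without replacement (seed 7). SE is the standard error of the difference from the pooled spread of the 5 sample values. The pipeline was tested on simulated data. Depth and cell recovery were compared by exact permutation over samples, and expression was not tested, because it chose the pair. The members and gene lists were chosen with earlier results of these data known.

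Genes were named as the 12 highest and the 12 lowest log2 differences among genes separated with all cells, at equal depth and without cycling markers, leaving out unnamed, mitochondrial and ribosomal protein symbols, with up to 4 members of a list past 2-fold, the 5 highest and 5 lowest genes within the pair, cycling markers, Tg and the X-inactivation and Y-linked genes. Further list members are named for their direction only. Of 48 named genes, 47 had 1 entry in the GENCODE M21 annotation (GRCm38). The deposited barcode list is not used here, and values of some list members and the promoter of 1 gene past 2-fold are not reported here. The alternatives changed depth, cycling cells, the UMI minimum, averaging, pseudocount, filter, scaling, barcode genes and samples, 1 at a time, except that thinning was also combined with leaving out cycling cells and with a minimum of 3000 UMIs.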

Additional observations from a re-analysis of the deposited data

How the results depend on the processing

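The log2 difference of every named gene separated in the pair kept its direction under each of up to 18 alternatives in which it was computed. The genes named as highest and lowest were chosen as separated with all cells, at equal depth and without cycling markers. Their direction under those alternatives thus follows from the choice. The other alternatives use the same samples, grouped on these values, so nothing is read from the kept direction. The correlation of late 2 with early 1 across genes fell from 0.457 to 0.256 in cells thinned to 1000 UMIs, to 0.300 in cells without cycling markers, to 0.0427 with both and to 0.140 with no UMI minimum. With 0.1 in place of 1 added, 54 genes were separated and 2-fold higher and 48 lower, against 23 and 14. With no filter on low values 2490 genes were separated upwards and 2960 downwards, against 560 and 430, and with a filter of 2 per 10000 these were 110 and 58, with 6 genes 2-fold lower. UMIs summed over cells gave 677 genes downwards, and leaving out genes that follow the well barcode gave 9 genes 2-fold lower. The cause was not tested, though a stricter filter leaves fewer genes. The difference in the share of cells with a cycling marker was 24.4 percentage points, 4.54 in thinned cells and 18.6 with no UMI minimum. With 1 sample left out, 773 to 1170 genes were separated upwards and 585 to 1299 downwards, as fewer samples make separation easier, 17 to 29 were 2-fold higher and 11 to 21 lower, and the correlation was 0.359 to 0.422 where both samples of the pair remained. The highest counts were without early 2, and the counts were 962 upwards without late 1, 1073 upwards and 702 downwards without late 2, and 846 downwards without early 1. Leaving out features fed by ribosomal RNA was chosen after seeing the data. No paired analysis was possible because the labels give no number that ties a sample of one passage to a sample of the other and no test was made on expression. Levels that rest on few UMIs are imprecise, such as Gstm2 in the pair, with 19 UMIs in late 2 and 13 in early 1. The median number of UMIs per cell was 12380.5 in late 2 and 11059 in early 1. It was 5704, 8954 and 5011 in late 1, late 3 and early 2, and the part of depth in these counts was not tested. Groups of 2 and 3 samples are too small for a check of single outlying samples.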
